A study of Mus musculus with 2 samples.

Results

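The p200 or PYHIN genes, interferon-inducible genes clustered on mouse chromosome 1, were followed in liver RNA of a control and an irradiated sample, with 1 Affymetrix whole-transcript array each. The control liver was that of a male C57BL/6 mouse, a common inbred strain, aged 9 weeks and not irradiated. The irradiated sample was of the same strain, sex and age, and had been exposed once, over the whole body and under anaesthesia, to 6 Gy of gamma rays (0.81 Gy per minute) when 4 weeks old, with 5 weeks between exposure and sampling. The labels do not say whether each RNA came from 1 animal or from a pool, nor whether the control was anaesthetised. The family list named 8 genes: Ifi203, Ifi204, Ifi205, Ifi207, Mnda, Mndal, Pyhin1 and Aim2. A member was measured through a probe set annotated with exactly 1 gene symbol, and 6 of the 8 had such a probe set, each with no second one, among 22180 genes on the array that did. Pyhin1 stands in the annotation under its current symbol Ifi209, and Mnda is an older name of Ifi211. Ifi203 and Ifi211 were covered only by probe sets that name several genes, and those are described apart. The list was put forward with the differences between these 2 arrays in view, so the values below are a description, and no test was made.

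Proteins of this family pair a PYRIN domain, which binds other PYRIN-domain proteins, with a HIN domain, which binds DNA, although single members lack one of them. Some act in the cytosol as sensors of double-stranded DNA. Others are nuclear proteins that act on transcription and the cell cycle. Type I interferon raises transcription of many of them through interferon-stimulated response elements, short DNA sites bound by the STAT and IRF proteins below the interferon receptor. In liver the family is best known from macrophages and other leukocytes. A bulk sample cannot tell more cells of such a type from more RNA in each of them.

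The family's promoters share a short sequence of this kind. The motif searched was the core of the interferon-stimulated response element, written as GAAA, any 2 bases and GAAA again, on either strand of the RefSeq windows reaching from 250 bases before to 50 bases after each transcript start (assembly GRCm38.p6). It occurred in 9 of the 12 family genes with a window, and in 5 of the 7 listed members with one. Ifi204 had no window and was not searched. Of 27025 genes with windows in the mouse table, 3.99% held the core (3.44% of 32851 windows). These are the stretches around the match, 5′ to 3′ on the gene's own strand, with the core in capitals; they are shown because the same letters recur around the core from gene to gene.
Ifi205: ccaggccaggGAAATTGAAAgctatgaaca
Ifi207: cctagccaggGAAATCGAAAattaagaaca
Ifi211 (Mnda): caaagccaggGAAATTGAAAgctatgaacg
Ifi203: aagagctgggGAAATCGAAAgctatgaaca
Mndal: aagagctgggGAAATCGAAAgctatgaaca
Ifi206: tgtctctgagGAAATCGAAAgctatgaacc
Ifi208: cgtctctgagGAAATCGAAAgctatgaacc
Ifi213: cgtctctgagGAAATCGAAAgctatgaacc
Ifi214: agtctctgagGAAATCGAAAgcgatgcact

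The match of Ifi205 began 134 bases before the start (chr1:174031870-174031899, minus strand). Those of Ifi203, Mndal, Ifi211 and Ifi207 began 35, 36, 37 and 41 bases before it, and the Ifi207 stretch is chr1:173741831-173741860, minus strand. A second match in Ifi205 lay 23 bases after the start, on the opposite strand. Another window of Mndal, at a second annotated start, held a match on the opposite strand, 54 bases before that start. In 7 of the 12 family genes the core read GAAATCGAAA, a decamer that only 16 of the 27025 genes held, so that family genes made up 7 of its 16 holders. That decamer was singled out after the windows were seen. Pyhin1 (Ifi209), whose window was 95.3% identical to that of Ifi214, had a near match differing from the decamer by G1T, counted from its 5′ end, 79 bases before the start:
Ifi209 (Pyhin1): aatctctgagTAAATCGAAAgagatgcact

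Aim2 held neither the core nor a decamer with 1 mismatch before the start in its window. A second motif, TTCNNNGAA, the core of the gamma-activated site, a DNA element of the interferon gamma response, was found in 1 family gene, Ifi202b, and in 0 of the 7 listed members with a window, against 9.55% of genes in the table. A match is a run of letters and not a measured binding site. Other family windows also resembled each other, as with Ifi203 and Mndal (90.7% identical) and Ifi207 and Ifi211 (85.9%). The whole 250 bases before the start of Ifi205, the member with the largest difference between the arrays, lie at chr1:174031756-174032005, minus strand, and those of Ifi207, with the second largest, at chr1:173741810-173742059, minus strand. Capitals again mark the core.
Ifi205: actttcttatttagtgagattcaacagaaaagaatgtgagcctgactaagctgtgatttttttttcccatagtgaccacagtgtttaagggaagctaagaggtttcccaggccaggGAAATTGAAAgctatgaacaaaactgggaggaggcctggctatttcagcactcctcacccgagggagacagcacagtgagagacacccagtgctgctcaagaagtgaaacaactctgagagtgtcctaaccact
Ifi207: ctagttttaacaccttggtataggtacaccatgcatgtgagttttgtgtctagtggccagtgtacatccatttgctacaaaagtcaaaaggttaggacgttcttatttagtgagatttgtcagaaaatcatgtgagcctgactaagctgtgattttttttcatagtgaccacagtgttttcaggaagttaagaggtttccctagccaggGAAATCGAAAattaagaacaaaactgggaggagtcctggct

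**Figure D1:**
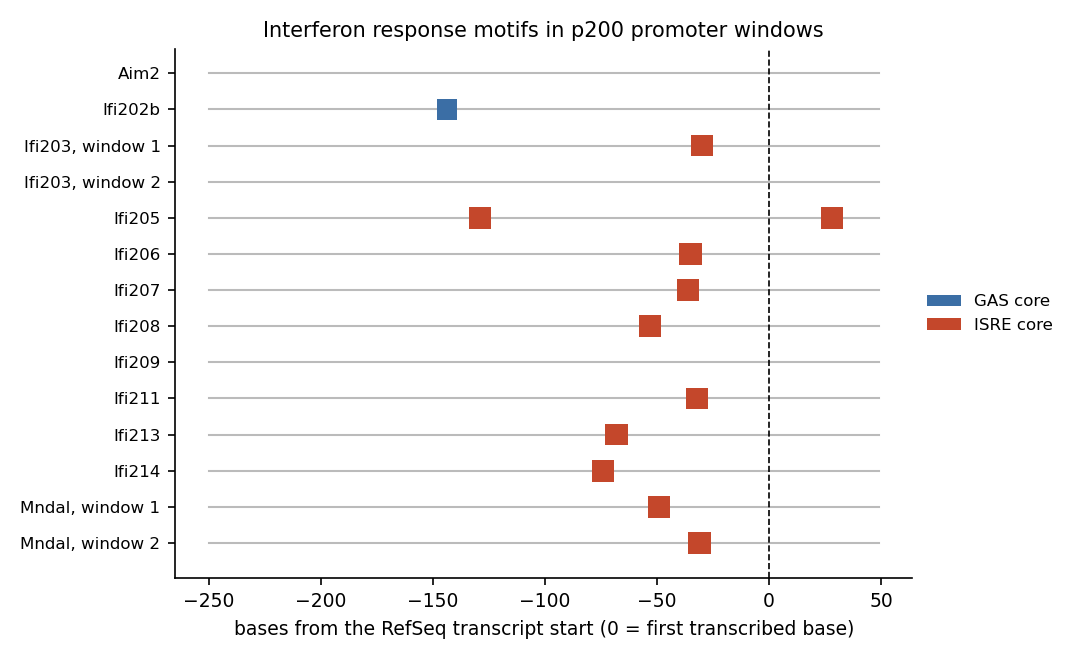
Position of the interferon-stimulated response element core (ISRE, red) and the gamma-activated site core (GAS, blue) in the RefSeq promoter windows of 12 p200 genes, in bases from the transcript start; each grey line is a window. In 4 of the 5 listed members with the ISRE core a match began 35 to 41 bases before a start, while in Ifi205 it began 134 bases before.

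All 6 measured members were higher on the irradiated array as measured, in a table where 47.9% of all 22180 genes were above 0. Their median difference, irradiated minus control on the log2 scale, was 0.29, with a range from 0.12 to 0.69, beside a median of 0.00 over all genes. Of the 6, 1 was at least 1.5-fold higher, where 1.23% of all genes were, and 0 were at least 1.5-fold lower, where 0.888% were. At least 0.32 log2 units higher were 3 of 6, Ifi204, Ifi205 and Ifi207, against 6.04%. These members were chosen with the same values in view, so nothing is read from the counts. There was no replicate, so the spread between animals is unknown and no difference has a replicate check.

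The level that separates weak from stronger probe sets here is 6.06, the median of all deposited values, called the floor below; it is a rank and not a measured background. By that mark Ifi204, Ifi205 and Mndal were at or above the floor on both arrays. Ifi207 passed it only on the irradiated array. Aim2 and Pyhin1 were below it on both. With every value under the floor set to it, the differences of Ifi204, Ifi205 and Mndal stayed as they were, Ifi207 fell to 0.21, and Aim2 and Pyhin1 stood at 0. The median over the 6 was then 0.17. Of the 4 members that reached the floor all were above 0, as were 48.5% of the 13689 genes that did. Ifi205 was again the single one at least 1.5-fold higher (0.942% of those genes), and 0 were as much lower (0.555%). Levels of different family probe sets were not ranked against each other, since each probe set has its own response.

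**Figure D2:**
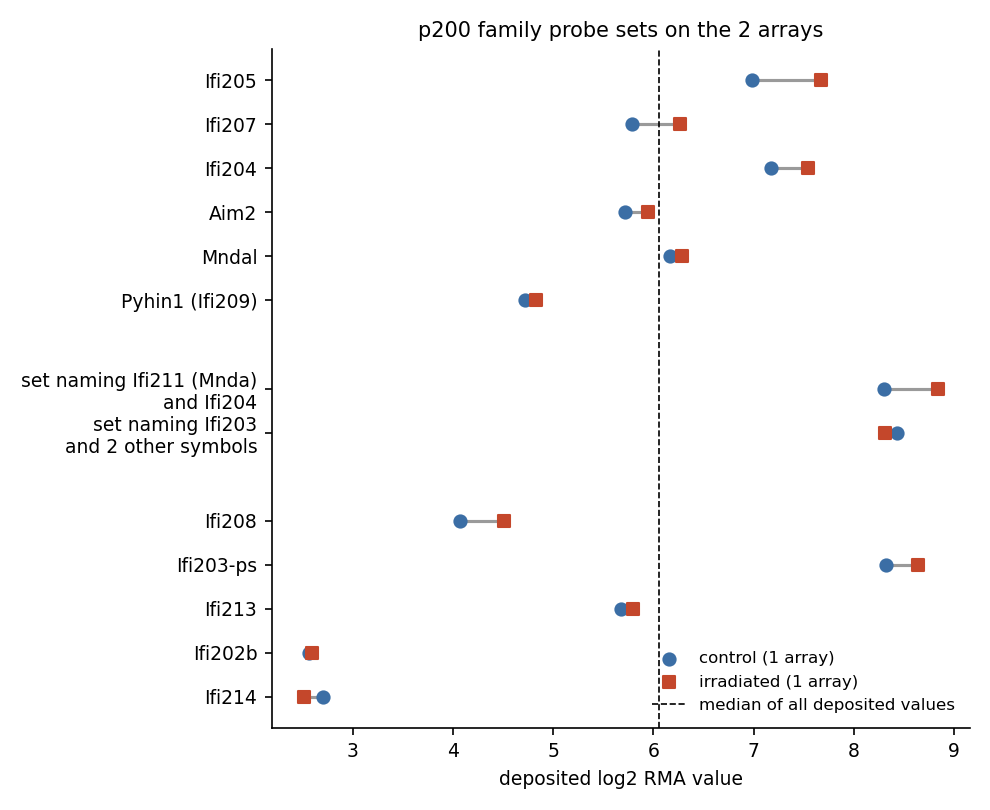
Deposited log2 RMA values (horizontal axis) for control (blue circles) and irradiated liver (red squares) for the 6 measured members, 2 probe sets that name several genes, and 5 other family genes, with the floor of 6.06 as a dashed line. The irradiated value is the higher one for all 6 members, and Ifi205 shows the widest gap, from 6.98 to 7.68.

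Ifi205, Ifi207, Mndal and Pyhin1 come first. Ifi205 encodes p205, a nuclear p200 protein of macrophages and other blood cells. Its probe set gave 6.98 in the control and 7.68 after irradiation. The difference was 0.69, or 1.62-fold, and this was the single member past 1.5-fold. Of the 2973 genes whose mean value lay within 0.5 log2 units of that of Ifi205, 34 (1.14%) were higher by as much or more, and the central 95% of these genes lay between -0.36 and 0.47. Over all 22180 genes, 162 had a difference at least as high, Ifi205 included. With 32 added on the linear scale the difference was 0.58, just short of 1.5-fold, and with the floor raised to the 75th percentile of all values it was 0.03. Ifi211 also carries the older name Ifi205b in the RefSeq table, and probes of near copies can cross-hybridise.

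Ifi207 is the neighbour of Ifi204 in the cluster. It read 5.79 in the control and 6.27 after irradiation, a difference of 0.48 or 1.40-fold. Against the floor the fold was 1.16, because the control value lay below it. Of 4859 genes of like mean value, 93 (1.91%) were higher by as much or more.

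Mndal is named for its likeness to the myeloid nuclear differentiation antigen. Its values were 6.16 and 6.28, a difference of 0.12, and 27.9% of genes of like mean value were as high or higher. Pyhin1 (Ifi209) read 4.72 and 4.83, both below the floor, with a difference of 0.12. Its human namesake encodes IFIX, a nuclear protein. The values of Mndal and Pyhin1 thus lay well inside the spread of genes of their own level.

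Ifi204 and Aim2 come next. Ifi204 encodes p204, a mouse relative of the human DNA sensor IFI16. It read 7.18 in the control and 7.54 after irradiation, a difference of 0.36 or 1.29-fold. Of 2953 genes of like mean value, 141 (4.77%) were as high or higher, and the difference lay inside their central 95%, from -0.36 to 0.47. Aim2, which encodes the cytosolic DNA sensor that assembles an inflammasome, read 5.72 and 5.94. The difference of 0.22 was met or passed by 13.5% of 4778 genes of like mean value, and both values lay below the floor.

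**Figure D3:**
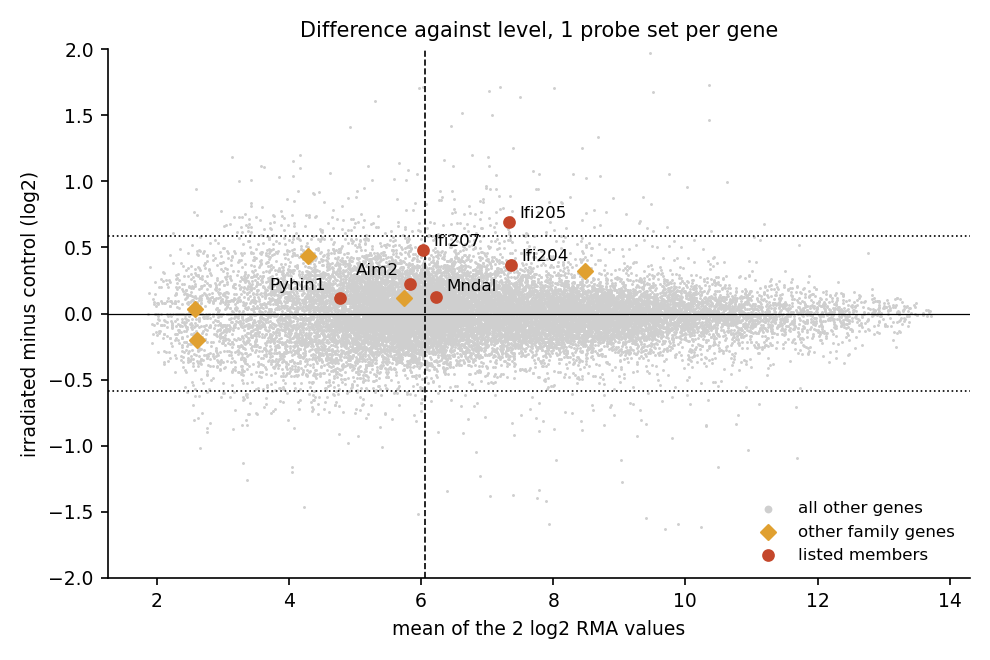
Difference between the arrays (irradiated minus control, log2, vertical axis) against the mean of the 2 log2 RMA values for all 22180 genes (grey), the 6 measured members (red) and 5 other family genes (orange); dotted lines mark 1.5-fold, the dashed line the floor, and 16 genes beyond 2 log2 units are off the axis. Ifi205 (0.69) lies past the 1.5-fold line, and the other 5 members between 0.12 and 0.48 lie inside it.

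The remaining listed members rest on probe sets that name several genes. A probe set annotated with both Ifi211 (Mnda) and Ifi204 read 8.30 and 8.84, a difference of 0.54 or 1.45-fold. It was higher on the irradiated array, like the probe set of Ifi204 alone (0.36), and the share of each gene in its signal is unknown. A probe set annotated with Ifi203, its pseudogene Ifi203-ps and another symbol read 8.44 and 8.31. Its difference of -0.13 went the opposite way. The probe set of Ifi203-ps alone read 8.32 and 8.64, a difference of 0.32, so that probe sets sharing this annotation disagreed in direction. With several-symbol probe sets used as well, 7 of the 8 listed members were above 0 and 1, Ifi203, was below. Mnda and Ifi204 then both take the value of the probe set they share (0.54), which is so counted for both.

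The family genes outside the list were mostly weak. Besides Ifi203-ps, the probe sets of Ifi208, Ifi213, Ifi214 and Ifi202b were below the floor on both arrays. Ifi208 differed by 0.44, from 4.07 to 4.51, and Ifi213 by 0.12. Ifi214 was the single one of the 11 family genes with a probe set of its own that was lower, at -0.20. Ifi202b encodes a HIN protein without a PYRIN domain that counters Aim2, and is known to be scarcely expressed in C57BL/6 mice; it read 2.56 and 2.60. No array value of Ifi206 was used here. The median over the 11 was 0.22, with 10 above 0, where 47.9% of all 22180 genes were. With each weaker value raised to the floor, the median was 0.00 and 5 of the 11 were above 0. Of all 22180 genes, 6646 were above 0 in that setting, where a gene below the floor on both arrays cannot be.

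In the RefSeq table the 13 protein-coding genes from Aim2 to Ifi205 are all p200 genes. Of 10 measured neighbours on either side, 2 reached the floor, and both were lower: the chemokine-binding receptor gene Ackr1 at -0.40 and the adhesion gene Cadm3 at -0.23. The other 8 neighbours were below the floor on both arrays and ranged from -0.46 to 0.85. The olfactory receptor gene Olfr429, at the top of that range, differed by more than Ifi205 with values of 3.66 and 4.51. In a wider list of genes of this chromosome 5 reached the floor, with a median of -0.00; among them the pentraxin genes Crp and Apcs differed by -0.00 and 0.03, and the Fc receptor gene Fcgr4 was higher by 0.36.

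**Figure D4:**
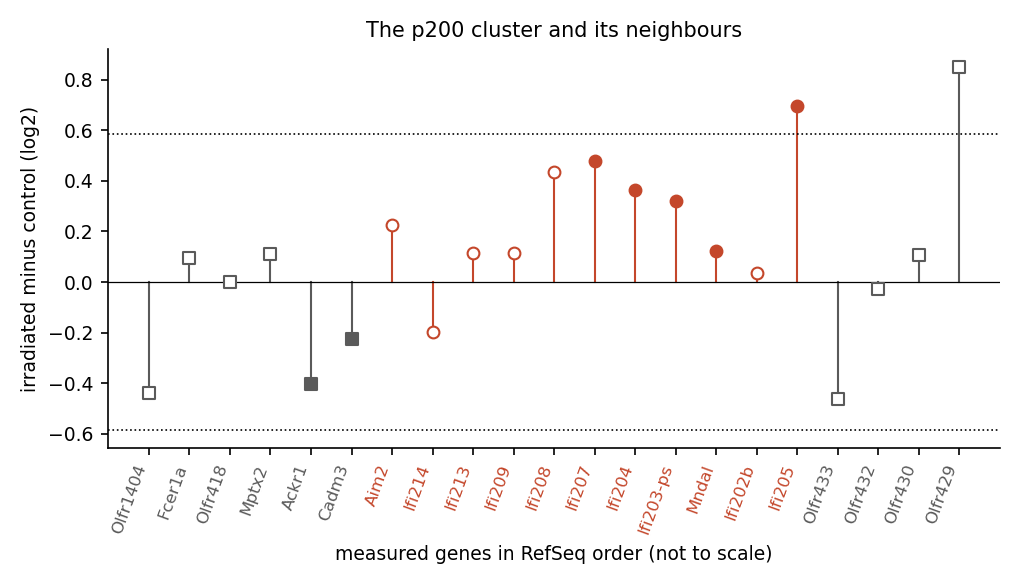
Difference between the arrays (irradiated minus control, log2) for measured genes in RefSeq order along chromosome 1, not to scale; red circles are p200 genes, grey squares their neighbours, open symbols genes below the floor on both arrays, and dotted lines 1.5-fold. Of 11 family genes 10 lie above 0, with Ifi214 at -0.20, while Ackr1 (-0.40) and Cadm3 (-0.23), next to Aim2, lie below it.

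No gene that reached the floor in the lists of partner and pathway genes below was 1.5-fold different. Aim2 signals through the adaptor Pycard (ASC), the protease caspase-1 and the cytokines it matures. Of 21 inflammasome genes, 16 reached the floor, with a median of -0.05, 7 above 0, and 0 at least 1.5-fold different either way. The background over the 13689 genes reaching the floor was 1.14% higher and 0.65% lower. At those shares a list of this size holds few such genes or none. Nothing is therefore read from the 0 counts of this list and the lists that follow. Pycard read 6.74 and 6.84, Casp1 6.53 and 6.37, Il1b 6.70 and 6.62 and Il18 8.51 and 8.42, differences of 0.10, -0.15, -0.08 and -0.09. The widest difference in the list was that of Txnip, a redox-linked gene, at -0.47.

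Ifi204 is linked to the adaptor STING, which passes on signals from cytosolic DNA. The list of nucleic acid sensing genes had a median of -0.03 over 21 genes reaching the floor, with 8 above 0 and 0 past 1.5-fold. Sting1 (Tmem173) differed by -0.11 and Irf3 by -0.11. Cgas (Mb21d1), the enzyme that makes the ligand of STING, was below the floor at 4.85 and 4.95. Irf7, itself an interferon-inducible transcription factor, was higher by 0.36, and the ribonuclease H2 subunit genes Rnaseh2a and Rnaseh2b by 0.31 and 0.43.

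Interferon receptors and transducers had a median of 0.08 over 17 genes, 13 of them above 0, and again 0 past 1.5-fold. The receptor gene Ifnar1 differed by -0.09. The transducer gene Stat2 differed by 0.06. The other interferon-stimulated genes had a median of 0.00 over 27 genes, 14 above 0 and 13 below, and 0 past 1.5-fold. Ifit1 differed by 0.14, and Isg15 was below the floor on both arrays at -0.14. Ifit3 (0.39) and Mx2 (-0.40) were at opposite ends of that list. Of 163 distinct genes reaching the floor in all 14 lists drawn up for comparison, 0 were as high as Ifi205. Among all 13689 genes reaching the floor only 101 were, Ifi205 included, so nothing is read from that count.

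**Figure D5:**
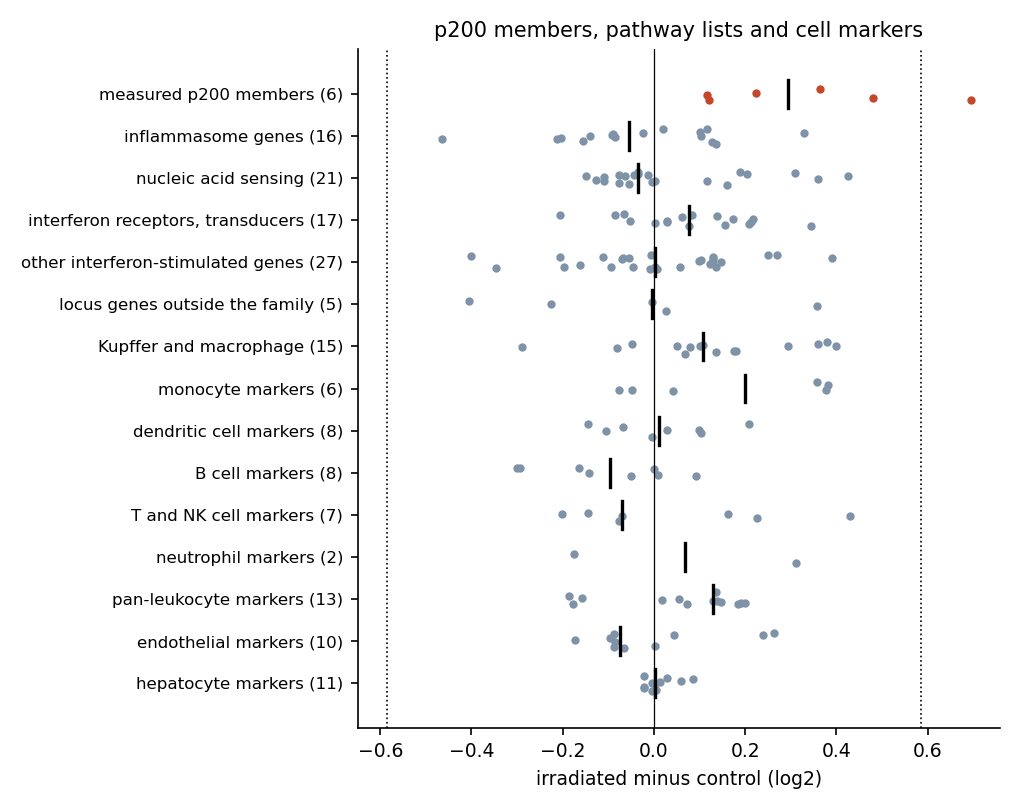
Differences between the arrays (irradiated minus control, log2) for the 6 measured p200 members (red) and, in grey, genes reaching the floor in 14 comparison lists; each point is a gene, the bars are medians, dotted lines mark 1.5-fold and the number of genes stands in brackets. The members lie between 0.12 and 0.69 with a median of 0.29, and the list medians between -0.10 and 0.20.

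Markers of blood cells known to carry p200 transcripts were read beside the members, and 0 of those reaching the floor were 1.5-fold different either way. Of all 13689 genes reaching the floor, 1.14% were as much higher and 0.65% as much lower, so nothing is read from that 0. Of 15 Kupffer cell and macrophage markers, all at or above the floor on both arrays, 12 were higher and 3 lower, with a median of 0.11. Their summed level, as log2 of the sum of linear values, went from 13.07 to 13.29. Vsig4 (0.40), C1qb (0.38) and Cd68 (0.36) had the highest differences, while the Kupffer marker Clec4f differed by 0.11. The other C1q genes, C1qa and C1qc, differed by 0.05 and -0.08. Cd163 was at -0.29 and Adgre1 at -0.05. Vsig4 (10.77 and 11.17) and C1qb (10.30 and 10.68) had the highest array values in the list and weigh most in its sum. Of 6 monocyte markers reaching the floor 4 were higher, with a median of 0.20 and summed levels over the 9 measured of 13.09 and 13.15. That sum rests mostly on Fn1, the fibronectin gene, which hepatocytes also express strongly (12.98 and 13.03), and over the other 8, a sum added after the data were seen, it was 9.31 and 9.50. Of the monocyte markers, Ly6c2 and Plac8 were each higher by 0.38 and Fcgr4 by 0.36, while Cx3cr1 (-0.08) and Itgam (-0.05) were lower. Below the floor, Ccr2 read 5.26 and 5.59, F13a1 differed by 0.19 and Chil3 by -0.07. Of 13 general leukocyte markers reaching the floor 10 were higher and 3 lower, with a median of 0.13 and a mean of 0.06. Their summed levels were 11.82 and 11.93. Ptprc, which encodes CD45, differed by 0.19, and the 3 lower ones were Coro1a (-0.19), Cd48 (-0.18) and Ikzf1 (-0.16). The part of these cells in the differences of the members was not tested.

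Markers of other cells were read in the same way. B cell markers had a median of -0.10 over 8 genes reaching the floor, 5 of them lower, with summed levels of 10.61 and 10.52, and Ms4a1, which encodes CD20, was below the floor on both arrays. Among T and NK cell markers Cd3e differed by 0.16 and Ccl5, a chemokine gene, by 0.43 (7.47 and 7.90), but Cd8b1 by -0.20 and Cd4 by -0.14. Their summed levels were 10.33 and 10.39, and the median was -0.07 over 7 genes, 3 higher and 4 lower. The sign of that median turns with the setting: it was 0.02 over all 17 measured genes with no filter on low values and 0.07 with several-symbol probe sets, and the mean in its place was 0.05. Dendritic cell markers stood at 0.01 over 8 genes (-0.01 with each array centred on its median), with summed levels of 11.57 and 11.53. Of 12 neutrophil markers 10 were below the floor on both arrays, among them S100a8, S100a9 and Ly6g, and the summed levels were 9.10 and 9.09; the median was 0.07 over the 2 reaching the floor and -0.08 over all 12. Endothelial markers had a median of -0.08 over 10 genes. The 11 measured hepatocyte markers were all at or above the floor on both arrays, with a median of 0.00, and Alb, the albumin gene, read 13.68 and 13.70.

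Genes with the promoter motif had a median difference near that of the other genes. Those with the interferon-stimulated response element core that reached the floor numbered 388, with a median of 0.00, and 50% were above 0. Among 10370 genes without it, 48.1% were above 0. At least 1.5-fold higher were 6 of the 388 (1.55%), Ifi205 among them, and 1.02% of the genes without the core. At least 1.5-fold lower were 0 of the 388 and 0.434%. With the family genes left out, 5 of 385 genes with the core (1.3%) were at least 1.5-fold higher, and 49.6% were above 0. Of the 9 genes outside the family with the decamer GAAATCGAAA, 4 had a probe set of their own that reached the floor. The RNA sensor gene Ddx58 (-0.04), Parp11 (-0.09) and Pnrc1 (-0.10) were slightly lower and Serpinb6a (0.24) was higher.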

How the data were processed

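Liver RNA of 2 samples was measured, 1 array per group. The deposited log2 values are the authors' RMA values, from Affymetrix Expression Console 1.3.1 per the submitters' processing notes; RMA corrects the background, normalizes between arrays and summarises each probe set. The file does not state the log base, which was taken as log2 from the range, 1.46 to 13.9; the array medians were 6.05 and 6.07. Scanner intensities were not used, and the number of arrays limits the precision. Of 41345 probe sets, 23521 had 1 symbol in GEO's platform annotation, which can be old. Where a symbol had several, the probe set with the highest mean was kept. Older symbols were matched through RefSeq synonyms of GRCm38.p6, which also gave the promoter windows. Whether the array was designed on that build is unknown here. Differences are irradiated minus control; there was no test and no p-value. Python 3.11.15 with pandas 2.3.3 was used, and the counting was tested on simulated data. The members, the lists, the thresholds and the motifs were chosen with earlier results of these data known. All listed members and other family genes are named; of each comparison list, some of the 4 widest differences, and genes set by name. A comparison of member proteins was not made.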

Additional observations from a re-analysis of the deposited data

How the results depend on the processing

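No paired analysis was possible because there was 1 array on each side, and no replicate could be left out. With no replicate spread, a value was said to move when it changed by more than 0.23, the SD of the differences over genes reaching the floor. Scaling by array medians, quantiles or loess left the 6 measured members above 0 with 1 of them, Ifi205, past 1.5-fold. The deposited RMA values were already normalized between arrays, so these scalings could change little, and Ifi205 stood at 0.68, 0.69 and 0.69. Taking the probe set with the lowest mean, or the mean over probe sets, could not change the 6 measured members. Each had only 1 probe set of its own. With several-symbol probe sets also used, these 6 stayed above 0 and Ifi204 went to 0.54. Ifi205 was still the only listed member past 1.5-fold. The count past 1.5-fold went to 0 with the floor at the 75th percentile of all values (7.64) and with 32 added on the linear scale. Without Ifi205, the only member counted, the count was bound to be 0. At 2-fold it was 0 and at a threshold of 0.32 log2 units 3. With that higher floor the median was 0.00, since 5 of the 6 members lay below it on both arrays, and Ifi205 kept a difference of 0.03. Ifi204 and Ifi207 stood at 0 there, and Ifi207 was at 0.21 with the median floor. No setting put a member at least 1.5-fold lower, and none of the 168 alternative list medians moved by more than 0.23. The main list medians lay between -0.10 and 0.20. Settings that only shrink differences, the floors and the 32 added, therefore could not move them that far. Signs did change, as for the T and NK cell and neutrophil markers. All settings are reruns of the same 2 arrays. The count of higher members, and the settings without Ifi205, with genes above the floor on both arrays and with all family genes, were added after seeing the data.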

Other observations

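Among the family's probe sets in the deposited table stood 3 without a gene symbol in the annotation, all below the floor on both arrays. They differed by 0.26, 0.51 and -0.46, and what they measure is not known here.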
